A study of Mus musculus with 12 samples.

Results

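The interaction of diet and vector asks, gene by gene, whether a vector labelled to silence Aatf went with another expression difference in livers of mice on a Western diet than in livers of mice on chow. It is the log2 difference between siAATF and null vector on the Western diet minus the same difference on chow, and it uses all 12 libraries of the series. Of 50499 genes in the table, 11934 had enough counts to be tested, and these are the genes described. A positive interaction means that the siAATF level, relative to null, was higher on the Western diet than on chow, and a negative one that it was lower.

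The samples were livers of male C57Bl/6NCrl mice that from 6 weeks of age ate either chow, with plain drinking water, or a Western diet, with sugar in the water. After 12 weeks, AAV8 with the TBG promoter, which is active in hepatocytes, was injected into the tail vein and carried either siAATF or no insert (null), and livers were taken after 12 more weeks. The 4 groups, of 3 libraries each, were chow null, chow siAATF, Western null and Western siAATF. All mice, the null groups included, had received AAV8, and the labels do not say whether each replicate was a separate mouse, so p-values measure the spread between these samples, which may be technical.

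A Western diet with sugar water loads hepatocytes with fat and over time brings the inflammation and scarring of metabolic dysfunction-associated steatohepatitis. In such livers lipid-laden macrophages that make Gpnmb, Spp1 and Trem2 appear, stellate cells lay down collagen, and genes of the male liver programme, which depends on pulsatile growth hormone, are commonly reduced. Aatf encodes a nucleolar and transcriptional regulator known from ribosome maturation and the DNA damage response.

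Library totals ran from 1646853 to 13469819 counts, and the 18S ribosomal RNA gene took between 0.871% and 50.8% of them. Both extremes were in Western siAATF, with 19.8%, 50.8% and 0.871% in replicates 1, 2 and 3. Fits without replicate 3 of that group therefore keep the library with the highest share. Levels are given as CPM, counts scaled to a common library size, and 3 counts stood for between 0.185 and 1.69 CPM. Reads carried no molecular identifiers, so counting intervals cover counting error only. Western siAATF replicate 3 stood apart from replicates 1 and 2 of its group, at -41.0 on the second principal component (19.4% of the variance) against 24.7 and 58.0. Chow null replicate 2 was at -64.5 on it, against 29.0 and 9.11 in replicates 1 and 3, and 25 genes passed without that library. Results that rest on Western siAATF replicate 3 are given with and without that library. As a check of the tissue, 24 genes of secreted hepatocyte proteins summed to between 89075 and 162919 CPM in each library. In bulk tissue fewer cells of a type and less RNA per cell cannot be told apart.

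Aatf itself (GRCm39 chromosome 11, 84313682 to 84404433, minus strand) showed no interaction beyond the spread. Its level was 36.8, 26.5 and 31.6 CPM in chow null, 39.2, 24.6 and 40.5 CPM in chow siAATF, 27.6, 21.1 and 30.0 CPM in Western null, and 27.0, 27.5 and 28.2 CPM in Western siAATF. The groups overlapped on both diets, with no lower level in either group labelled siAATF. The log2 interaction was -0.05 ± 0.35 (SE; 95% interval -0.79 to 0.69; edgeR quasi-likelihood test, adjusted p = 0.975 by Benjamini-Hochberg over all genes tested), made of a vector difference of 0.06 on the Western diet and 0.11 on chow. Every vector direction below therefore rests on the labels alone. The Aatf counts take in introns and all cell types of the liver.

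Across the 11934 genes, 23 passed an adjusted p of 0.05 for the interaction (0.193% of those tested), 12 higher (0.101%) and 11 lower (0.0922%). The higher genes included the male-biased steroid enzyme Hsd3b5, the sulfotransferase Sult2a8 and the adropin precursor Enho. The lower genes included the macrophage glycoprotein Gpnmb, the lipid transport protein Apoa4 and the glutathione enzymes Gstm3, Gsta4 and Mgst3. The median interaction was 3.57 among the higher and -3.08 among the lower genes, against 0.07 over all genes tested (quartiles -0.33 and 0.49). At an unadjusted p of 0.05, 1093 genes passed (9.16%), 632 higher (5.30%) and 461 lower (3.86%).

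In 20 of the 23 genes the Western null libraries stood outside all other 9 libraries (7.81% of all genes did): above them in 10 of the 11 lower genes and below them in 10 of the 12 higher genes. Over all genes tested the Western null libraries were all above the other 9 in 4.39% and all below in 3.42%. These shares are descriptions, since such a position is close to what the interaction contrast selects. Gsta4, Acpp and Cerkl were the exceptions, with Western null libraries that overlapped others. All 23 genes also passed for the vector difference on the Western diet, where 104 genes passed in all (0.871%; 37 higher, 0.310%, and 67 lower, 0.561%). None of the 23 passed for the vector difference on chow, where 0 of 11934 genes did (0%) and 285 had an unadjusted p under 0.05 (2.39%; edgeR quasi-likelihood test). The Western groups did not overlap in any of the 23 genes (15.6% of all genes did not), and the chow groups did not overlap in 5 (8.56% of all genes). The interaction and these contrasts share libraries, so their shared calls are not separate evidence.

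**Figure D1:**
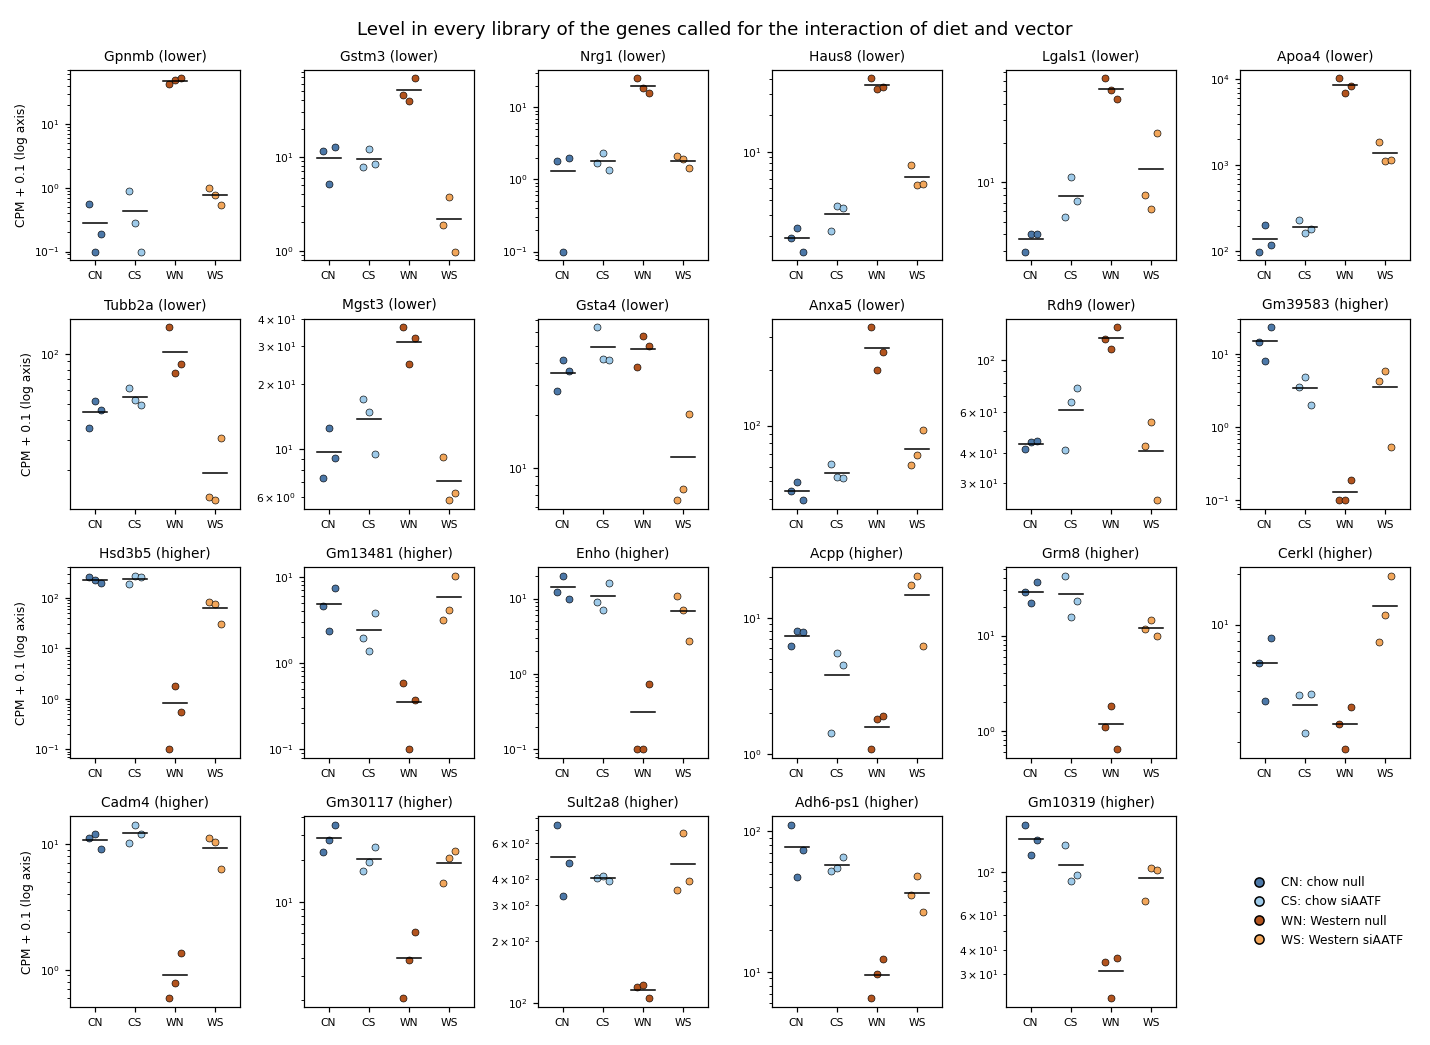
Level of each of the 23 genes in every library, as CPM plus 0.1 on a log axis, for chow null (CN), chow siAATF (CS), Western null (WN) and Western siAATF (WS). Points are libraries and bars are group means. In 20 of the 23 panels the 3 Western null points lie outside the other 9.

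Genes known from lipid-laden macrophages and from damaged tissue were among the lower genes. Gpnmb, a transmembrane glycoprotein of lipid-laden macrophages (GRCm39 chromosome 6, 49013449 to 49044413, plus strand), was at 0.457, 0 and 0.0871 CPM in chow null, 0.794, 0.185 and 0 CPM in chow siAATF, 43.0, 48.0 and 51.9 CPM in Western null, and 0.885, 0.681 and 0.440 CPM in Western siAATF. It was thus high in the 3 Western null libraries and near the level of 1 count in the others, where the summed counts were 5, 6 and 8 against 806 in Western null. The log2 interaction was -6.17 ± 1.15 (adjusted p = 0.0396).

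Anxa5, which binds exposed phosphatidylserine on dying cells, was measured far above the floor in all libraries (GRCm39 chromosome 3, 36503072 to 36530036, minus strand). It stood at 44.1, 49.1 and 39.3 CPM in chow null, 61.6, 52.7 and 51.6 CPM in chow siAATF, 340.2, 201 and 249.8 CPM in Western null, and 61.3, 69.0 and 94.6 CPM in Western siAATF. The chow groups did not overlap, with siAATF above null, and the Western groups did not overlap in the opposite order. Its interaction was -2.15 ± 0.35 (adjusted p = 0.0182), from a vector difference of -1.82 on the Western diet and 0.33 on chow.

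Lgals1, the glycan-binding protein galectin-1, had the same order: 2.86, 3.95 and 3.92 CPM in chow null, 5.29, 11.0 and 7.11 CPM in chow siAATF, 62.7, 51.1 and 43.2 CPM in Western null, and 7.96, 6.13 and 23.8 CPM in Western siAATF. Western siAATF replicate 3 was the highest of its group. The interaction was -3.32 ± 0.61 (adjusted p = 0.0360), and 34.0% of the span of Lgals1 overlaps a predicted gene, so part of its reads may be missing from the count.

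Nrg1, a ligand of the ErbB receptors, was low on chow with either vector and raised in Western null. Its levels were 1.71, 0 and 1.92 CPM in chow null, 1.59, 2.22 and 1.25 CPM in chow siAATF, 25.2, 18.4 and 15.7 CPM in Western null, and 1.99, 1.82 and 1.32 CPM in Western siAATF. The Western siAATF libraries lay within the range of the chow libraries. The interaction was -3.66 ± 0.69 (adjusted p = 0.0396).

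Enzymes that conjugate glutathione to reactive molecules formed a second group of lower genes. Gstm3 (GRCm39 chromosome 3, 107871012 to 107876490, minus strand) was at 11.3, 5.08 and 12.7 CPM in chow null, 7.67, 12.0 and 8.36 CPM in chow siAATF, 45.9, 39.5 and 68.4 CPM in Western null, and 1.77, 3.63 and 0.880 CPM in Western siAATF. On the Western diet the siAATF libraries lay below every chow library and the null libraries above every one. The interaction was -4.39 ± 0.56 (adjusted p = 0.00363), and the diet difference was 2.32 with the null vector and -2.07 with siAATF, each past the threshold of its own contrast.

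Gsta4, which clears lipid peroxidation aldehydes, followed another pattern. It stood at 27.3, 41.2 and 35.6 CPM in chow null, 63.8, 41.8 and 41.6 CPM in chow siAATF, 37.5, 56.6 and 49.5 CPM in Western null, and 6.41, 7.49 and 20.2 CPM in Western siAATF. Western null overlapped both chow groups and Western siAATF was below all other 9 libraries. Its interaction was -2.66 ± 0.50 (adjusted p = 0.0396), with a diet difference of 0.48 with the null vector (adjusted p = 0.369) and -2.18 with siAATF (adjusted p = 0.00889; both edgeR quasi-likelihood).

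Mgst3, a microsomal glutathione transferase, was at 7.20, 12.4 and 8.97 CPM in chow null, 16.9, 14.7 and 9.41 CPM in chow siAATF, 36.5, 24.5 and 32.7 CPM in Western null, and 9.07, 5.67 and 6.16 CPM in Western siAATF. Western null was the high group and Western siAATF overlapped chow null. The interaction was -2.73 ± 0.44 (adjusted p = 0.0182). The glutathione transferases are near-identical copies of one another in part, so their counts may have been split or dropped between members.

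Genes of lipid and retinoid handling also had lower interactions. Apoa4, an apolipoprotein of triglyceride-rich particles (GRCm39 chromosome 9, 46152142 to 46154756, plus strand), was the most abundant of the 23 genes in Western null. Its levels were 99.8, 203 and 119 CPM in chow null, 234, 162 and 183 CPM in chow siAATF, 10263, 6883 and 8276 CPM in Western null, and 1850.3, 1137 and 1147 CPM in Western siAATF. The Western siAATF libraries lay between the Western null libraries and all 6 chow libraries. The interaction was -3.08 ± 0.45 (adjusted p = 0.00837), and the diet difference was 5.92 with the null vector and 2.84 with siAATF, so Apoa4 was higher on the Western diet with either vector.

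Rdh9, a retinol dehydrogenase, was at 41.8, 44.6 and 45.3 CPM in chow null, 41.3, 66.4 and 75.7 CPM in chow siAATF, 122, 112 and 138 CPM in Western null, and 42.9, 54.5 and 25.1 CPM in Western siAATF. It was high in Western null alone, and its interaction of -2.07 ± 0.39 (adjusted p = 0.0396) was the smallest in size among the lower genes.

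A pair of microtubule genes completed the lower group. Haus8, a subunit of the augmin complex of the mitotic spindle, stood at 1.83, 2.26 and 1.39 CPM in chow null, 2.12, 3.45 and 3.34 CPM in chow siAATF, 40.5, 33.1 and 34.2 CPM in Western null, and 7.74, 5.22 and 5.28 CPM in Western siAATF. Like Apoa4 it lay between Western null and chow in all 3 Western siAATF libraries, with an interaction of -3.38 ± 0.46 (adjusted p = 0.00476).

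Tubb2a, a beta tubulin, was at 35.4, 51.4 and 45.5 CPM in chow null, 62.2, 52.5 and 48.9 CPM in chow siAATF, 144, 76.3 and 86.8 CPM in Western null, and 13.5, 12.9 and 30.8 CPM in Western siAATF. As for Gstm3, the Western siAATF libraries lay below every chow library. The interaction was -2.77 ± 0.46 (adjusted p = 0.0211), with diet differences of 1.22 and -1.55 that each passed in their own contrast.

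Among the higher genes, hepatocyte enzymes of steroid, bile acid and alcohol metabolism were low in Western null. Hsd3b5, a steroid reductase far more abundant in male than in female mouse liver (GRCm39 chromosome 3, 98525952 to 98552850, minus strand), had the smallest adjusted p of all genes. It was at 258, 230.4 and 197 CPM in chow null, 187, 270.2 and 255 CPM in chow siAATF, 0, 1.70 and 0.449 CPM in Western null, and 81.6, 75.3 and 30.4 CPM in Western siAATF. The chow groups overlapped, Western null was near the floor, and all 3 Western siAATF libraries lay between Western null and chow. The interaction was 6.48 ± 0.66 (adjusted p = 0.000278), from a vector difference of 6.54 on the Western diet and 0.06 on chow.

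Sult2a8, which sulfates bile acids in mouse liver (GRCm39 chromosome 7, 14144611 to 14180705, minus strand), stood at 737, 330.3 and 478 CPM in chow null, 404, 417 and 394 CPM in chow siAATF, 119, 121 and 105 CPM in Western null, and 355, 676 and 390.4 CPM in Western siAATF. Western siAATF overlapped both chow groups and Western null lay below all other libraries. The interaction was 2.39 ± 0.43 (adjusted p = 0.0336).

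Adh6-ps1, annotated as an alcohol dehydrogenase pseudogene, was at 111, 47.4 and 72.9 CPM in chow null, 52.1, 55.0 and 65.6 CPM in chow siAATF, 6.42, 9.54 and 12.3 CPM in Western null, and 34.9, 48.1 and 26.4 CPM in Western siAATF. Its interaction was 2.33 ± 0.45 (adjusted p = 0.0445). Enho, which encodes the secreted peptide adropin, had 254, 223, 7 and 85 summed counts in chow null, chow siAATF, Western null and Western siAATF, and its interaction was 4.43 ± 0.87 (adjusted p = 0.0473). For both genes the Western null libraries were below all others.

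Membrane and signalling genes made up the next group. Cadm4, an adhesion molecule of the immunoglobulin family, was at 11.0, 11.9 and 9.05 CPM in chow null, 10.1, 14.0 and 11.9 CPM in chow siAATF, 0.494, 0.681 and 1.26 CPM in Western null, and 11.1, 10.2 and 6.16 CPM in Western siAATF. Grm8, a metabotropic glutamate receptor, was at 28.5, 22.0 and 36.0 CPM in chow null, 42.1, 15.8 and 23.2 CPM in chow siAATF, 0.987, 1.70 and 0.539 CPM in Western null, and 11.5, 14.3 and 9.68 CPM in Western siAATF. Western siAATF overlapped chow for Cadm4 and lay below all 6 chow libraries for Grm8. The interactions were 3.01 ± 0.52 for Cadm4 (adjusted p = 0.0264) and 3.87 ± 0.63 for Grm8 (adjusted p = 0.0182).

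Acpp, an acid phosphatase, and Cerkl, a ceramide kinase-like protein, were not lowest in Western null alone. Acpp was at 6.17, 7.91 and 7.75 CPM in chow null, 1.32, 5.48 and 4.39 CPM in chow siAATF, 0.987, 1.70 and 1.80 CPM in Western null, and 17.5, 20.2 and 6.16 CPM in Western siAATF. Cerkl was at 5.83, 3.39 and 8.18 CPM in chow null, 3.70, 2.15 and 3.76 CPM in chow siAATF, 2.47, 1.70 and 3.14 CPM in Western null, and 7.74, 11.3 and 19.4 CPM in Western siAATF. In both, the highest single library was from Western siAATF. Their interactions were 4.06 ± 0.70 (Acpp, adjusted p = 0.0264) and 3.27 ± 0.63 (Cerkl, adjusted p = 0.0445).

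The other 4 higher genes are predicted models of unknown role, outside the rule for named genes and given to complete the 23. Gm30117 had an interaction of 2.60 ± 0.47 (adjusted p = 0.0360), Gm10319 of 2.02 ± 0.37 (adjusted p = 0.0360) and Gm13481 of 5.57 ± 1.02 (adjusted p = 0.0360), the last with 4 counts in all of Western null. Gm39583 passed as well (adjusted p = 0.0107), but Western null held 1 count of it, so its fitted fold depends on the prior count. Its summed counts were 405 in chow null, 99 in chow siAATF and 45 in Western siAATF, and Western siAATF was 64.7-fold above Western null with a 95% counting interval of 11.0 to 2610.1.

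Sequence near the start of these genes was set beside their values. RefSeq promoters (GRCm38.p6, another build than that of the counts) gave 20 windows of 250 bases before a start for 17 of the 23 genes. Hsd3b5 and Gstm3 are shown as the higher and lower gene that kept their call most widely, and Tubb2a and Sult2a8 as those with a TATAAA match 29 bases before the start, in capitals. Each is printed 5′ to 3′ on the strand of the gene.
Hsd3b5, chr3:98645535-98645784, minus strand: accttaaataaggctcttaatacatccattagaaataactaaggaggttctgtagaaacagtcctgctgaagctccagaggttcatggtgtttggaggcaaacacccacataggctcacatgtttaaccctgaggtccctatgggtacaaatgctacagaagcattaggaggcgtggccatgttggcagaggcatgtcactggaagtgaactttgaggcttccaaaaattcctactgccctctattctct
Gstm3, chr3:107969175-107969424, minus strand: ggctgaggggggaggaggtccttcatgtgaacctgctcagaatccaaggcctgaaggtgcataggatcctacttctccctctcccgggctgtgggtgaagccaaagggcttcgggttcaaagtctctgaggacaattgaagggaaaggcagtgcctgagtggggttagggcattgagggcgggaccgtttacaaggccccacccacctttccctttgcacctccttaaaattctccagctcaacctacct
Tubb2a, chr13:34078009-34078258, minus strand: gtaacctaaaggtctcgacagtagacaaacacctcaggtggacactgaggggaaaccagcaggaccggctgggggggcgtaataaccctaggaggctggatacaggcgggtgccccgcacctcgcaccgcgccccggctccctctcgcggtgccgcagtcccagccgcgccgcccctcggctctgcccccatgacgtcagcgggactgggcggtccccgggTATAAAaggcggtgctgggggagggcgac
Sult2a8, chr7:14438552-14438801, minus strand: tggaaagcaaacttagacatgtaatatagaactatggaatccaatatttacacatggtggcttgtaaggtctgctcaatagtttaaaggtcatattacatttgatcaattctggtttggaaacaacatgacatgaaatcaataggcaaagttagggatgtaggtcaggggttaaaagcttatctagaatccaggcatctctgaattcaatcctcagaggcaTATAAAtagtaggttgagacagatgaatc

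The 4 motifs were searched on both strands. TATAAA was found in 3 of the 20 windows (Tubb2a and both windows of Sult2a8), against 12.4% of 32851 windows of the same length. TTCNNNGAA, the STAT5 pair, was in 1 window (Gm39583; 7.02% of all windows), and CACGTG, the E-box, in 1 (Rdh9; 6.02%). TGACNNNGC, the core of the antioxidant element, was in 0 of the 20 (10.2% of all windows), Gstm3 and Mgst3 included. The motifs do not overlap one another in these windows, and a match is a description of letters and not a bound site.

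The same 23 genes can be read as diet differences. With the null vector the median diet difference was 2.58 among the lower genes and -3.19 among the higher genes, and with siAATF it was -0.01 and -0.15. The diet contrast with the null vector passed for 21 of the 23, all but Gsta4 and Cerkl, where 1577 of all genes passed (13.2%; 6.44% higher and 6.77% lower). With siAATF it passed for 7, namely Hsd3b5, Gstm3, Apoa4, Tubb2a, Acpp, Gsta4 and Cerkl, where 177 of all genes passed (1.48%; 0.763% higher and 0.721% lower). These contrasts share libraries with the interaction, so the values are set side by side as a description.

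Relative to the 6 chow libraries, the Western siAATF libraries were all above for Haus8 and Apoa4. They were all below for Hsd3b5, Gstm3, Grm8, Tubb2a and Gsta4, and overlapped chow in the other called genes. No share over all genes was taken for these positions, so they are descriptions only. The diet difference had opposite signs with the 2 vectors in 11 genes: Gstm3, Mgst3, Tubb2a, Gsta4, Nrg1 and Rdh9 among the lower, and Gm39583, Acpp, Sult2a8, Gm13481 and Cerkl among the higher. In Gstm3, Tubb2a and Acpp both diet differences passed, and the diet difference of Acpp was -2.15 with null and 1.91 with siAATF. The vector difference had opposite signs on the 2 diets in 20 genes, all but Hsd3b5, Gstm3 and Cadm4. On chow it passed in none and had an unadjusted p under 0.05 in 4. The contrast that selected these genes favours opposite signs, and no share over all genes was taken. The counts of signs, for diet and for vector, are therefore descriptions and do not show a reversal.

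**Figure D2:**
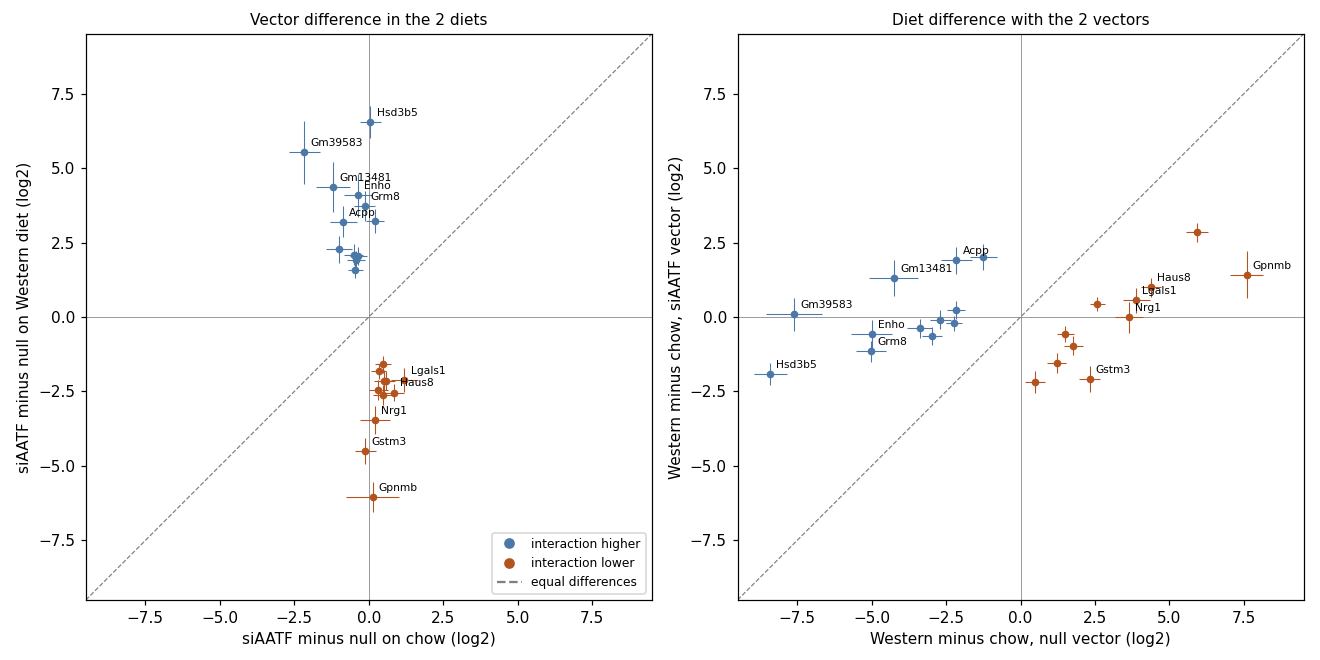
Left, the log2 vector difference on the Western diet against that on chow, and right, the log2 diet difference with siAATF against that with the null vector, for the 23 genes with SE bars. The dashed line marks equal differences, so the distance from it is the interaction. On chow the vector differences lie between -2.16 and 1.20, and on the Western diet between -6.04 and 6.54.

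A log2 interaction compares ratios, so the difference of differences was also taken in CPM, with an SE from the spread in the 4 groups. It had the same sign as the log2 value in all 23 genes and was over 2 SE in 21. Both scales use the libraries that selected these genes, so the shared sign is not separate evidence. No share over all genes was taken. Apoa4 gave -7149 ± 1009.6 CPM, Anxa5 -199.7 ± 42.3 CPM, Gstm3 -48.8 ± 9.21 CPM and Sult2a8 468.8 ± 156.5 CPM. Hsd3b5, with 52.7 ± 34.9 CPM, and Grm8, with 12.6 ± 8.92 CPM, were under 2 SE on this scale.

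Gene lists of liver cell types and pathways were read by their counts and medians. Shares over all genes at an unadjusted p of 0.05 were 5.30% higher and 3.86% lower. Without Western siAATF replicate 3, 1.16% of all genes passed as higher and 1.23% as lower. Of 17 genes of lipid-associated macrophages, Gpnmb and Anxa5 passed as lower and none as higher, and 10 were lower at an unadjusted p of 0.05 (3.86% of all genes) and 1 was higher (5.30%). The list median was -1.58, against 0.07 over all genes. Spp1, the secreted glycoprotein osteopontin, did not pass at -3.18 ± 0.63 (adjusted p = 0.0617), with 12.5, 3.39 and 14.6 CPM in chow null, 23.0, 13.5 and 12.3 CPM in chow siAATF, 199, 88.3 and 167 CPM in Western null, and 18.6, 38.1 and 15.4 CPM in Western siAATF. Trem2, the lipid receptor of these cells, had 3, 4, 286 and 29 summed counts in the same order of groups. Its interaction did not pass at -3.17 ± 1.29 (adjusted p = 0.464). Cd63, a tetraspanin of lysosomes, had -2.13 ± 0.49 (adjusted p = 0.102).

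The summed level of the macrophage list was 1120 to 1431 CPM in chow null, 1291 to 1346 CPM in chow siAATF, 2382 to 2864 CPM in Western null and 1383, 1192 and 3333 CPM in Western siAATF. Replicate 3 of Western siAATF was therefore above Western null in this sum and replicates 1 and 2 within the range of chow null. Such a sum is set by its most abundant members. Gpnmb, Trem2, Spp1 and Cd63 held 0.440, 1.76, 15.4 and 6.16 CPM of it in replicate 3. Without that replicate, 5 of the 17 genes passed as lower (1.23% of all genes then tested passed as lower), Spp1, Cd63 and Plin2 in addition. Plin2 turned sign, from 0.14 with all libraries (adjusted p = 0.976) to -1.83 (adjusted p = 0.00420). For Gpnmb, Trem2 and Spp1 replicate 3 was no higher than replicate 1 of its group.

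Of 13 genes of resident Kupffer cells none passed, and the median was 0.27. At an unadjusted p of 0.05, 4 were higher (5.30% of all genes) and 1 was lower (3.86%). Cd163, a haemoglobin scavenger receptor, had 10.4, 20.9 and 7.57 CPM in chow null, 5.03, 5.85 and 12.1 CPM in chow siAATF, 1.97, 3.75 and 1.98 CPM in Western null, and 20.1, 17.0 and 4.40 CPM in Western siAATF (interaction 3.19 ± 0.76, adjusted p = 0.113), and 37.0% of its span overlaps other genes. Timd4, a phosphatidylserine receptor, had 3.12 ± 0.83 (adjusted p = 0.165). The sum of the 13 genes was 331 to 511 CPM in chow null, 254 to 478 CPM in chow siAATF, 682 to 1163 CPM in Western null and 1217, 898 and 517 CPM in Western siAATF, so the Western groups overlapped. Both passed as higher without Western siAATF replicate 3 (adjusted p = 0.00408 and 0.0406).

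All 7 genes of antigen presentation by MHC class II had a negative interaction, with a median of -1.34, and none passed. At an unadjusted p of 0.05, 4 were lower (3.86% of all genes). H2-Eb1 was at 9.60, 12.4 and 18 CPM in chow null, 14.3, 12.4 and 22.4 CPM in chow siAATF, 104, 131 and 108 CPM in Western null, and 33.2, 18.6 and 44.0 CPM in Western siAATF (-2.12 ± 0.46, adjusted p = 0.0829). The summed level of the 7 genes was 73.5 to 209 CPM in chow null, 84.9 to 173 CPM in chow siAATF, 641 to 886 CPM in Western null and 141 to 241 CPM in Western siAATF. The Western groups did not overlap, replicate 3 included, and Western siAATF overlapped both chow groups. H2-Eb1 was the only member of the 7 to pass without replicate 3 (-2.44, adjusted p = 0.00420).

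Of 27 genes of the extracellular matrix, 25 had a negative interaction, none passed, and the median was -1.54. At an unadjusted p of 0.05, 16 were lower (3.86% of all genes). Col6a3, a chain of microfibrillar collagen, was at 9.71, 19.8 and 12.8 CPM in chow null, 25.4, 14.2 and 17.1 CPM in chow siAATF, 150.1, 91.3 and 130.0 CPM in Western null, and 39.6, 19.5 and 47.5 CPM in Western siAATF (-2.28 ± 0.49, adjusted p = 0.0784). Bgn, a small proteoglycan, had -1.54 ± 0.35 (adjusted p = 0.0947). Col1a1, the main fibrillar collagen, was more spread, with 349.6, 199.7 and 264 CPM in Western null and 48.7, 11.6 and 123 CPM in Western siAATF, and had -3.16 ± 1.14 (adjusted p = 0.445).

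Without Western siAATF replicate 3, 6 of the 27 matrix genes passed as lower (1.23% of all genes then tested), Col6a3, Bgn and Col5a2 among them. The summed level of the 27 genes was 3336 to 3884 CPM in chow null and 3148 to 3568 CPM in chow siAATF. It was 3554 to 4628 CPM in Western null and 3156 to 4349 CPM in Western siAATF, so the Western groups overlapped. Col1a1 held 3.20, 18.1 and 5.22 CPM of the sum in chow null, so other, more abundant members set it. The 11 stellate cell genes had a median of -0.22, and none passed with all libraries or without Western siAATF replicate 3. At an unadjusted p of 0.05, 3 were lower (3.86% of all genes). Of 8 cholangiocyte genes none passed with all libraries, 2 were lower at an unadjusted p of 0.05 (3.86% of all genes), and the median was -1.27. Among the latter Prom1 held 56 counts with the null vector and 8 with siAATF on the Western diet (-2.03 ± 0.94, adjusted p = 0.541). Without replicate 3 Spp1 (-2.97, adjusted p = 0.0184) and the keratin Krt23 passed as lower, and Krt23 turned sign, from 0.23 (adjusted p = 0.996) to -5.74 (adjusted p = 0.0431). The 14 endothelial genes had a median of 0.08, with none passing and 1 lower at an unadjusted p of 0.05.

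The summed stellate cell genes ran from 224 to 422 CPM over the 6 chow libraries, from 496 to 575 CPM in Western null and from 345 to 577 CPM in Western siAATF. The cholangiocyte sum ran from 33.0 to 52.9 CPM on chow and from 110.1 to 239 CPM in Western null. In Western siAATF it ran from 33.2 to 103 CPM, without overlap of the Western groups. Most of the Western null sum was Spp1, also a member of the macrophage list, at 199, 88.3 and 167 CPM. Western siAATF replicate 3 had the highest sum of its group, 103 CPM, with 15.4 CPM of Spp1. With Spp1 taken out, the Western sums would overlap. The endothelial sum was 348 to 446 CPM on chow, 540 to 669 CPM in Western null and 492 to 578 CPM in Western siAATF. Cd5l and Folr2 of Kupffer cells, Lrat of stellate cells, Ms4a1 of B cells and the matrix gene Timp3 are listed at 0 in every library, and the T and B cell genes Cd3e, Cd8a and Cd79a were under the filter. The part of cell number in the matrix and macrophage values was not tested.

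**Figure D3:**
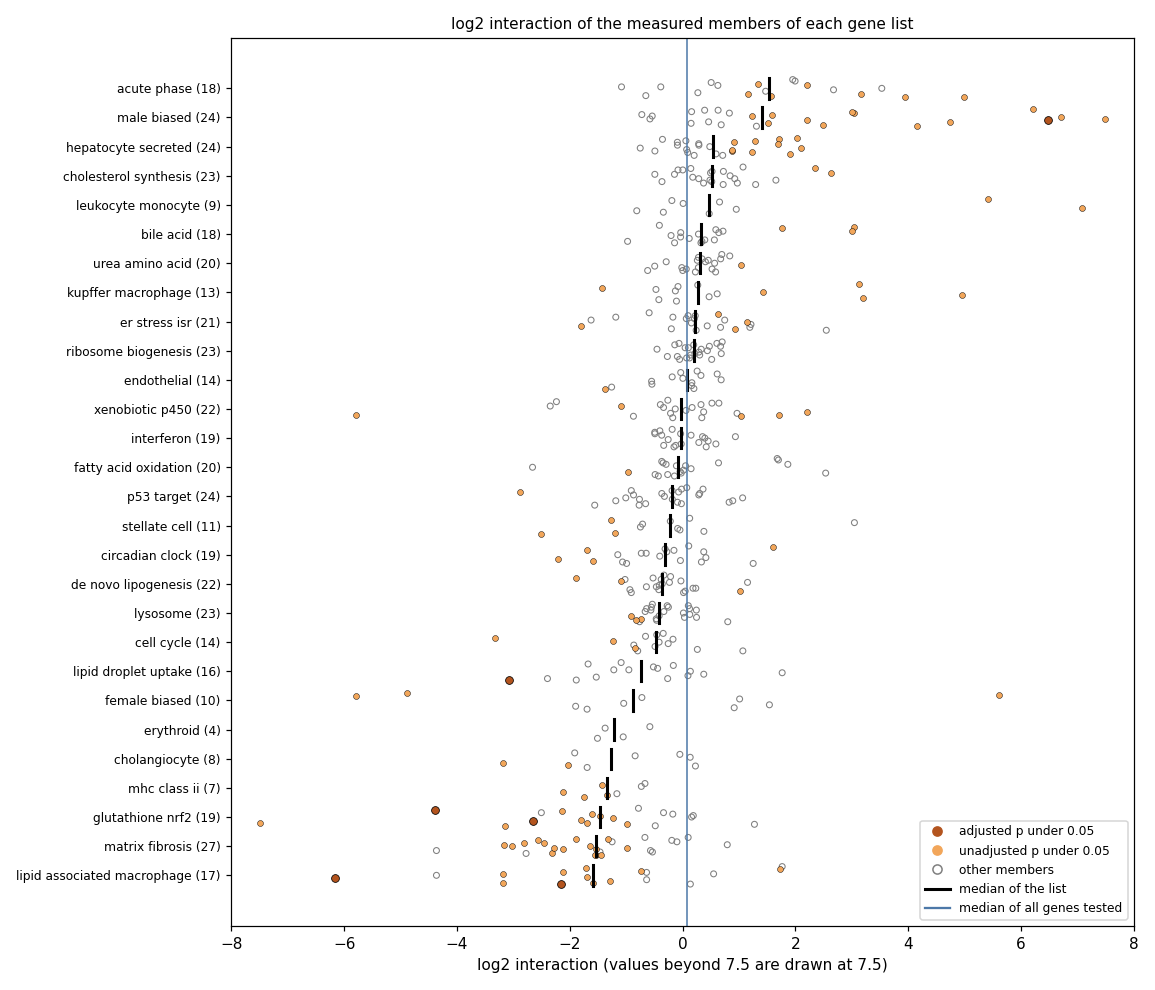
The log2 interaction of every measured member of the 28 lists, ordered by list median, with the number measured in brackets. Filled dark points passed the adjusted threshold, filled light points an unadjusted p of 0.05, the black bar is the list median and the blue line the median of all genes (0.07). The list medians run from -1.58 for lipid-associated macrophages to 1.53 for the acute phase.

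The glutathione and antioxidant list held 19 measured genes, of which Gstm3 and Gsta4 passed as lower, none passed as higher, 11 were lower at an unadjusted p of 0.05, and the median was -1.46. Gstm1, the most abundant class mu transferase named here, was at 672, 843 and 632 CPM in chow null, 815, 999 and 812 CPM in chow siAATF, 1105, 978 and 1104 CPM in Western null, and 187, 194 and 503 CPM in Western siAATF. Western siAATF was below all other 9 libraries, with replicate 3 nearest to them, and the interaction was -2.14 ± 0.46 (adjusted p = 0.0784). Gsta1 had 82 counts in Western null, 6 in chow siAATF and 0 in the other groups, at least 19.0-fold lower in Western siAATF than in Western null taking 3 counts in the whole group as the floor. Without Western siAATF replicate 3, Gstm1 passed at -2.81 (adjusted p = 6.37e-05). Of the 19 genes 9 then passed as lower (1.23% of all genes) and 1 as higher (1.16%).

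The male-biased list had the opposite direction. Of 24 measured genes Hsd3b5 passed as higher, none passed as lower, 13 were higher at an unadjusted p of 0.05, and the median was 1.42. Serpina1e, a protease inhibitor made by hepatocytes, was at 7641, 5503 and 5054 CPM in chow null, 5645, 7191 and 6385 CPM in chow siAATF, 43.0, 33.1 and 33.7 CPM in Western null, and 1514, 1465 and 93.8 CPM in Western siAATF. All 3 Western siAATF libraries were above Western null, replicate 3 by far the least, and the interaction of 4.73 ± 0.99 did not pass (adjusted p = 0.105). Without replicate 3 it was 5.24 (adjusted p = 3.17e-08). The summed level of the 24 genes was 9502, 14785 and 5471 CPM in Western siAATF and 7042 to 9355 CPM in Western null. The Western groups thus overlapped in this sum, and replicate 3 was the lowest of all 12 libraries.

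Cyp7b1, an oxysterol hydroxylase of bile acid synthesis, gave 3.04 ± 0.68 (adjusted p = 0.105), and Slco1a1, an organic anion transporter, gave 3.01 ± 0.93 (adjusted p = 0.335). Both passed without Western siAATF replicate 3 (adjusted p = 0.0386 and 0.0108). Then 9 male-biased genes passed as higher (1.16% of all genes) and none as lower (1.23%). The Serpina1 and Mup genes of this list are near-identical copies whose counts are uncertain. The 10 measured female-biased genes had a median of -0.88, with 1 higher and 2 lower at an unadjusted p of 0.05 and none passing. Among them Ntrk2, a neurotrophin receptor, had -4.88 ± 1.07 (adjusted p = 0.0832). Without replicate 3 Cyp2c40 passed as higher, and Ntrk2 (-4.47, adjusted p = 0.00471) and the thioesterase Acot3 as lower. Acot3 turned sign, from 1.01 with all libraries (adjusted p = 0.933) to -5.09 (adjusted p = 0.0269).

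Acute phase genes had the highest list median, 1.53, with 7 of 18 higher at an unadjusted p of 0.05 and none passing. They also showed how much Western siAATF replicate 3 differed from the rest of its group. Apcs, serum amyloid P, was at 49.7, 26.5 and 43.1 CPM in chow null, 29.1, 21.1 and 20.1 CPM in chow siAATF, 21.2, 28.6 and 31.0 CPM in Western null, and 234, 479.8 and 8.80 CPM in Western siAATF. Its highest and lowest libraries of all were both Western siAATF, and the interaction was 3.94 ± 1.33 (adjusted p = 0.414) with all libraries and 4.46 (adjusted p = 1.48e-05) without replicate 3.

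Fgl1, a fibrinogen-like hepatokine, was at 225, 209 and 184 CPM in Western null and 1518, 2078 and 104 CPM in Western siAATF, with 3.17 ± 1.09 (adjusted p = 0.412). Summed over the 18 acute phase genes, the level was 27300.3, 24132 and 4597 CPM in Western siAATF, 4999 to 6136 CPM in Western null and up to 10589.7 CPM in chow siAATF. Without replicate 3, 7 of the 18 genes passed as higher (1.16% of all genes then tested did), and of 9 leukocyte genes S100a8 and S100a9 passed as higher. S100a9, a neutrophil protein, was at 53.3, 88.5 and 1.76 CPM in Western siAATF and at most 3.05 CPM in the other groups (7.08 ± 1.77, adjusted p = 0.211).

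S100a8, the partner of S100a9, held 83, 97 and 0 counts in the Western siAATF libraries, and 15 counts in Western null, 11 in chow null and 3 in chow siAATF in all. Replicate 3 again stood apart from its group. Summed over the 9 measured leukocyte genes, the level was 44.3 to 119.9 CPM on chow, 252, 313 and 60.3 CPM in Western siAATF and 197 to 272 CPM in Western null. The median of that list was 0.47, with 2 genes higher at an unadjusted p of 0.05, both of which passed without replicate 3. The part of these cells in the acute phase values was not tested.

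Secreted hepatocyte proteins had a median of 0.54, with 10 of 24 higher at an unadjusted p of 0.05 and none passing. The fibrinogen chains were alike in this: Fgb was at 5862, 4435 and 3942 CPM in chow null, 4118, 2831 and 3395 CPM in chow siAATF, 1352, 1329 and 1656 CPM in Western null, and 4535, 7307 and 1689 CPM in Western siAATF. Replicate 3 was again just above Western null. The interactions were 2.10 ± 0.54 for Fgb (adjusted p = 0.149), 1.72 ± 0.44 for Fga (adjusted p = 0.149) and 2.03 ± 0.49 for Fgg (adjusted p = 0.125), and all 3 passed without replicate 3.

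Lipid genes gave few calls with all libraries. Of 16 lipid droplet and uptake genes Apoa4 passed as lower, no other member had an unadjusted p under 0.05, and the median was -0.73. Cidec, a droplet fusion protein, was at 3.66, 9.03 and 7.66 CPM in chow null, 4.23, 9.17 and 4.39 CPM in chow siAATF, 139, 147 and 140.3 CPM in Western null, and 5.97, 12.3 and 131 CPM in Western siAATF. Here replicate 3 was close to Western null and replicates 1 and 2 close to chow, so the interaction was -1.53 ± 1.40 (adjusted p = 0.770) with it and -4.01 (adjusted p = 0.000316) without it.

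Cd36, a fatty acid transporter, was at 14.1, 20.3 and 26.03 CPM in chow null, 33.3, 39.2 and 15.5 CPM in chow siAATF, 323, 301 and 251 CPM in Western null, and 83.8, 103 and 366 CPM in Western siAATF (-1.22 ± 0.70, adjusted p = 0.623). Replicates 1 and 2 lay between the chow groups and Western null, and replicate 3 above Western null. Without replicate 3, 7 of the 16 genes passed as lower (1.23% of all genes then tested). Plin2, which turned sign as given above, was among the 7. De novo lipogenesis genes had a median of -0.37 over 22 genes, 1 higher and 2 lower at an unadjusted p of 0.05, and fatty acid oxidation genes of -0.08 over 20 genes, 1 of them lower. None of either list passed with all libraries. Without replicate 3, 4 fatty acid oxidation genes passed as lower. Among them the peroxisomal enzyme Ehhadh was at 1.68 with all libraries (adjusted p = 0.806) and -2.49 without it (adjusted p = 0.000316), and the thioesterase Acot1 at 2.54 (adjusted p = 0.768) and -3.27 (adjusted p = 0.00940), so both turned sign. Acaa1b, a peroxisomal thiolase, and Bdh1, a ketone body dehydrogenase, were negative in both fits. The summed level of fatty acid oxidation genes was 5889, 7265 and 34842 CPM in Western siAATF and 11749 to 13157 CPM in Western null.

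Among the other lists no gene passed with all libraries. The 23 genes of ribosome biogenesis, the process Aatf is known for, had a median of 0.20 with none at an unadjusted p of 0.05, and the 19 interferon genes a median of -0.03 with none. The 24 p53 targets had a median of -0.18 with 1 lower at that level, the cell cycle inhibitor Cdkn1a (-2.88 ± 0.90, adjusted p = 0.323), which passed without Western siAATF replicate 3 (-3.74, adjusted p = 0.0188). None of the cell cycle (14), clock (19), lysosome (23), cholesterol synthesis (23), bile acid (18), P450 (22), endoplasmic reticulum stress (21), urea cycle (20) or erythroid (4) genes passed with all libraries, and their medians ran from -1.21 for erythroid genes to 0.52 for cholesterol synthesis. At an unadjusted p of 0.05 these lists held, in that order, 3, 4, 3, 2, 3, 5, 4, 1 and 0 members. Both directions are counted, and 9.16% of all genes had such a p. Cholesterol synthesis, urea cycle and erythroid genes were not above that share. Without replicate 3, 3 bile acid genes (Cyp7b1, Slco1a1 and Cyp2c70) passed as higher and the export pump Abcc3 as lower, the P450 genes Cyp3a13 and Cyp2c54 as higher and Cyp3a11 and Cyp2c55 as lower, and of endoplasmic reticulum stress the chaperone Pdia4 as higher and the pseudokinase Trib3 as lower.

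DESeq2 passed 124 of all genes (1.04%), and more members than edgeR in several lists. These were 5 lipid-associated macrophage, 5 matrix, 6 glutathione, 7 male-biased, 5 secreted hepatocyte, 2 female-biased and 2 P450 genes. Also among them was 1 each of the Kupffer, leukocyte, MHC class II, cholangiocyte, bile acid, cell cycle and lysosome lists. Of the lipid droplet genes 1 passed, as many as with edgeR. In the other 13 lists DESeq2 passed none, acute phase genes included. limma-voom passed 9 of all genes (0.0754%), among them 1 lipid-associated macrophage, 2 glutathione, 1 male-biased and 1 lipid droplet gene, and none in the other 24 lists.

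Genes with a predicted symbol, or averaging under 5 CPM in every group, were left out of the next count. Among the rest, 31 had vector differences of opposite sign at an unadjusted p of 0.05 on both diets. Of all genes tested, without that restriction, 10.7% had such a p on the Western diet and 2.39% on chow. Haus8, Lgals1 and Cerkl were among the 31 and passed for the interaction, as above. Gm39583 also passed and had such differences, but has a predicted symbol and was not counted. Cxcl1, a neutrophil chemokine, was at 3.20, 16.4 and 13.8 CPM in chow null, 0.529, 0.431 and 2.51 CPM in chow siAATF, 0, 3.75 and 1.89 CPM in Western null, and 18.4, 20.4 and 1.32 CPM in Western siAATF. Its vector difference was -3.37 on chow and 2.78 on the Western diet, and the interaction of 6.15 ± 1.45 did not pass (adjusted p = 0.149).

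Ntrk2 had a vector difference of 2.76 on chow and -2.12 on the Western diet. Slc37a1, a sugar phosphate transporter, had -1.83 and 1.68 in the same order, with an interaction of 3.52 ± 0.83 (adjusted p = 0.112). Fbxw9, a ubiquitin ligase subunit, stood at 10.4, 11.3 and 10.2 CPM in chow null, 14.8, 20.5 and 20.3 CPM in chow siAATF, 20.7, 23.5 and 22.2 CPM in Western null, and 16.4, 10.7 and 10.1 CPM in Western siAATF. Its groups did not overlap on either diet, in opposite orders, with an interaction of -1.65 ± 0.37 (adjusted p = 0.0947).

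Diet differences that were alike with both vectors could also be bounded. Of 118 genes that passed for diet with both vectors, 115 had the same direction, and in 22 of these the 95% interval of the interaction lay inside -1 to 1. Hsd3b5 and Apoa4 were the genes among the 115 that also passed for the interaction. Slco2a1, a prostaglandin transporter, was at 84.0, 84.1 and 82.6 CPM in chow null, 99.5, 130.4 and 113 CPM in chow siAATF, 15.3, 16.0 and 17.4 CPM in Western null, and 28.7, 21.6 and 10.1 CPM in Western siAATF. All 6 Western libraries lay below all 6 chow libraries, with diet differences of -2.35 and -2.48 and an interaction of -0.13 (interval -0.97 to 0.71).

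Rpl9, a ribosomal protein, was at 54.0, 62.1 and 59.9 CPM in chow null, 60.6, 50.7 and 55.2 CPM in chow siAATF, 123, 157 and 99.7 CPM in Western null, and 151, 119.8 and 114 CPM in Western siAATF. The Western libraries were above all chow libraries, and the interaction was 0.10 (interval -0.56 to 0.76). Rps19, another ribosomal protein, had 0.18 (-0.51 to 0.87). Plxna2 (-0.14, -0.82 to 0.55), Rab11fip4 (0.02, -0.77 to 0.81) and Rdh11 (0.15, -0.65 to 0.94) had intervals of similar width. These genes were lower on the Western diet than on chow with both vectors.

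Over all genes, the interval lay inside -1 to 1 in 1962, which is 16.4% of those tested, and wholly beyond -1 or 1 in 107. The median distance from the estimate to the interval's end was 1.01 log2 units. For most genes the interval therefore reached beyond 1 in at least 1 direction, and a gene that did not pass is not shown to respond alike on both diets. Cyp7a1, the rate-limiting enzyme of bile acid synthesis, had an interaction of -0.03 with an interval of -1.14 to 1.07, and Fasn, fatty acid synthase, one of -0.21 with an interval of -1.35 to 0.92.

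The number of genes that passed depended on single libraries. It was 23 with all 12 and 295 (2.38% of 12379) without Western siAATF replicate 3, 143 higher and 152 lower, with all 23 among them. Leaving out 1 of the other libraries gave 11 (chow null 1), 25 (chow null 2), 2 (chow null 3), 13 (chow siAATF 1), 8 (chow siAATF 2), 11 (chow siAATF 3), 4 (Western null 1), 9 (Western null 2), 4 (Western null 3), 16 (Western siAATF 1) and 17 (Western siAATF 2). Every one of the 23 kept its sign in all 22 refits under other settings or with libraries left out. Gstm3 passed in all 22, Haus8 and Hsd3b5 in 21 and Apoa4 in 20, while Enho passed in 4, Adh6-ps1 in 6, Nrg1 in 7 and Rdh9 in 8.

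**Figure D4:**
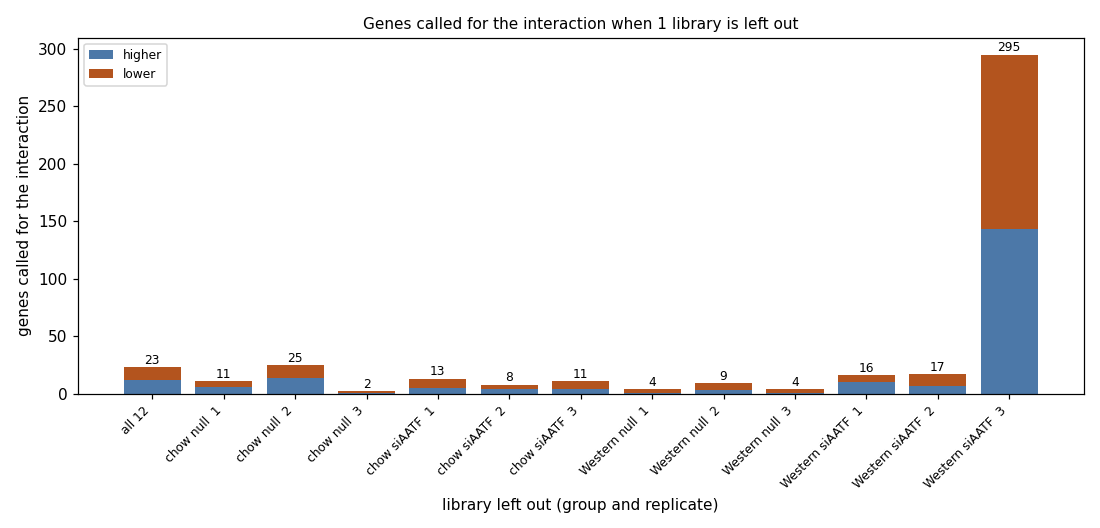
Number of genes that passed for the interaction with all 12 libraries and with each library left out, split into higher and lower. The bar without Western siAATF replicate 3 reaches 295, and the other bars with 1 library left out lie between 2 and 25.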

How the data were processed

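Counts of reads per gene were deposited as whole numbers for 12 libraries in 4 groups. The submitters' processing notes name STAR 2.7.11, featureCounts 2.0.1, DESeq2 1.42.0 and R 4.3.2, and the build GRCm39. Whether strand was used in counting is not given in the sources used here. Each gene's deposited length equals its whole span, so introns were counted. Reads on overlapping genes may be missing, and antisense pairs cannot be told apart. Per the labels' protocols, an AllPrep kit gave the RNA and a SMART-Seq kit the libraries.

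From the counts as deposited, 28210 genes were at 0 in all libraries and 10355 were under the filter (edgeR's filterByExpr by group). The other 11934 were fitted with edgeR 4.0.16 in R 4.3.3 (TMM library sizes, robust quasi-likelihood test, a mean per group, 8 residual degrees of freedom). P-values were adjusted over all of them by Benjamini-Hochberg, with a threshold of 0.05. Every adjusted p in the text comes from this fit unless another is named, and SE is the estimate divided by the square root of F. CPM uses TMM library sizes. In every pair of replicates the counts differed beyond sampling noise, with a lowest chi-square of 10.3 per degree of freedom, so each library counted as 1 sample. The fit recovered the size of set changes in a test on simulated data. There the Western siAATF libraries changed alike, so the test does not cover an outlying library such as replicate 3.

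The genes described and the 28 lists were chosen with earlier results of these data known. Named were Aatf; the called genes with at least 5 CPM and no predicted symbol, up to 12 each way by size (filled to 10 by p); up to 3 members per list by p; a panel of liver genes; up to 6 genes with opposite vector differences; and up to 6 with diet differences alike. Not every gene of the panel is reported here. List members at 0, under the filter or not in the table were left out of the medians. Alternatives were DESeq2, limma-voom (limma 3.58.1), other scalings and filters, an 18S covariate, a replicate block and each library left out.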

Additional observations from a re-analysis of the deposited data

Results flagged for a closer look

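All 23 genes that passed for the interaction are listed here because the vector difference differed between the 2 diets by a test of that difference. Lower log2 interactions, with the edgeR quasi-likelihood test and Benjamini-Hochberg adjustment, were -6.17 for Gpnmb, -4.39 for Gstm3, -3.66 for Nrg1, -3.38 for Haus8, -3.32 for Lgals1, -3.08 for Apoa4, -2.77 for Tubb2a, -2.73 for Mgst3, -2.66 for Gsta4, -2.15 for Anxa5 and -2.07 for Rdh9. Higher ones were 7.69 for Gm39583 (a fitted value that depends on the prior count, with 1 count in Western null), 6.48 for Hsd3b5, 5.57 for Gm13481, 4.43 for Enho, 4.06 for Acpp, 3.87 for Grm8, 3.27 for Cerkl, 3.01 for Cadm4, 2.60 for Gm30117, 2.39 for Sult2a8, 2.33 for Adh6-ps1 and 2.02 for Gm10319. Groups of 3 libraries are too small for a test of single outlying libraries.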

How the results depend on the processing

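The 23 genes (12 higher, 11 lower) kept their sign in all 22 refits, and the count of calls moved as follows. It was 331 (224 higher, 107 lower) without a filter on low counts, 124 (63 and 61) with DESeq2, 9 with limma-voom (1 higher, 8 lower), 13 (7 and 6) without robust estimation, 3 (1 and 2) without the 4 libraries over 25% 18S (which leaves chow null with 1 library, assumed to vary like the other groups), and 51 (24 and 27) at an adjusted p of 0.1. RLE size factors gave 23, leaving out the 18S gene 22, a mean of at least 5 CPM 21 and an 18S covariate 25. Leaving out 1 library gave 2 to 295 calls, 1 to 143 higher and 1 to 152 lower. With a replicate block 14 genes passed (8 higher, 6 lower), 13 of them among the 23. Of 18 same-numbered pairs, 1 had a correlation of deviations over 0.1 (range -0.38 to 0.26). Differently numbered pairs were not compared, so these values cannot decide whether the numbers pair the samples. The cause of these moves was not tested.

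Over the genes named, 2363 refitted values kept sign and side of the threshold, 209 lost their call, 115 gained one and 35 turned sign. Turned values outside the omission of a single library were 0.0118 for Aatf with limma-voom and 0.0077 without the libraries over 25% 18S, 0.14 for Fasn with the 18S covariate, -0.0536 for Cyp2e1 without those libraries, and for Rab11fip4 -0.00129 without the 18S gene, -0.00769 without the filter, -0.13 with the covariate and -0.0932 without those libraries. With 1 library left out, values ran from -0.29 to 0.0525 for Aatf, -0.59 to 0.34 for Cyp7a1, -0.56 to 0.13 for Fasn, -0.11 to 0.54 for Srebf1, -0.0634 to 0.54 for Ddit3, -0.46 to 0.12 for Slco2a1, -0.29 to 0.10 for Plxna2, -0.11 to 0.16 for Rab11fip4, -0.0450 to 0.39 for Rdh11, -0.0676 to 0.25 for Rpl9 and -0.0232 to 0.29 for Rps19. Depth limits genes such as Gpnmb and Enho, whose low groups hold few counts.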

Other observations

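Some genes outside the groups above came close to the threshold. Nrp1, a co-receptor for semaphorins and vascular growth factors, was at 147, 104 and 114 CPM in chow null, 90.0, 93.4 and 86.7 CPM in chow siAATF, 58.3, 65.8 and 59.1 CPM in Western null, and 115, 125 and 129.8 CPM in Western siAATF. Its groups did not overlap on either diet, in opposite orders, and the interaction was 1.45 ± 0.29 (edgeR quasi-likelihood, adjusted p = 0.0550), with 31.6% of its span overlapping other genes. Cyp2c54, a cytochrome P450, had 2.20 ± 0.47 (adjusted p = 0.0784), and Cyp3a13, another, had 1.71 ± 0.39 (adjusted p = 0.0982). Crybb3, a lens crystallin gene, held 21, 12, 2 and 59 counts in chow null, chow siAATF, Western null and Western siAATF, and Western siAATF was 42.4-fold above Western null with a 95% counting interval of 11.2 to 358.2 (adjusted p = 0.0524 for the interaction).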
